A study of Mus musculus with 17 samples.

Results

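The 9 genes described here move sodium, chloride and water across the lung epithelium and endothelium or control that movement. They are Scnn1a, Scnn1b and Scnn1g (the subunits of the epithelial sodium channel), Nedd4l, Atp1b1, Cftr, Slc12a2, Aqp1 and Aqp5. They were chosen by name, with earlier results of these data known, from a table of 24327 genes in each of 2 experiments. All 9 were measured in every library. The data are bulk RNA-seq of mouse lung in 17 libraries from 5 genotype groups. The first experiment held 3 libraries of the genotype LysMcre;Nlrp3A350V, called here the Nlrp3 mutant, and 3 of a group labelled control. The second held 3 libraries of LysMcre;Nlrp3A350V;Il181r+/-, called the het mutant, 4 of LysMcre;Nlrp3A350V;Il181r-/-, called the null mutant, and 4 of a group labelled Il18r1 control. The labels spell the receptor allele Il181r, and the series' design text also spells it Il18r1. Whether any control animals carried the LysM-cre driver or an Il18r1 allele is not given in the labels, nor are age, sex or litter.

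The protein NLRP3 senses danger signals and assembles an inflammasome, from which the active cytokines IL-1β and IL-18 are released, and A350V is a gain-of-function change of it. LysM-cre is active in myeloid cells and is also known to act in some alveolar type 2 cells, while the genes described here are known mainly from epithelium and endothelium. In which cells of these lungs the allele was active was not measured. The product of Il18r1 is the ligand-binding part of the receptor for IL-18. By its title, the series asks how excess inflammasome activity acts on formation of the gas exchange surface, and through which cytokines.

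In the alveolus, sodium enters epithelial cells through the epithelial sodium channel at the air side, is pumped out on the blood side by the sodium pump (Na,K-ATPase), and water follows. This transport clears fluid from the airspace, most of all around birth, and glucocorticoid signals are known to raise it. Chloride follows through channels such as CFTR, or enters cells through the sodium, potassium and chloride cotransporter NKCC1 (Slc12a2), which drives secretion of fluid in the opposite direction.

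Values are FPKM, fragments scaled by transcript length and library size, so that levels can be set beside each other between genes per length. Nothing in the labels says whether libraries of a group are from different mice, so the p-values measure only library-to-library spread, and this may be technical. Depth, set to 1 in the first library of a table, ran between 0.788 and 1 in the first experiment and between 0.75 and 1.15 in the second, and 13147 to 13450 genes reached 1 FPKM. Il18r1 stood at 29.9 to 31.2 FPKM in het mutants, 6.98 to 9.0 in null mutants and 13.4 to 15.0 in their controls, so transcript remained in the null libraries. In the first experiment it stood at 40.0 to 43.4 FPKM in Nlrp3 mutants and 17.9 to 22.2 in controls. Nlrp3 was at 2.73 to 4.08 FPKM in the 10 mutant libraries and 0.709 to 2.3 FPKM in the 7 control libraries, and reads of the A350V and normal alleles are counted together. Xist, expressed from the inactive X chromosome of females, was at 37.7 FPKM or more in null libraries 2 and 4 and in every Nlrp3 and het mutant library. It was at 0.0426 FPKM or less in all control libraries and in null libraries 1 and 3, which expressed Y-linked genes. Genotype and sex-linked transcripts therefore cannot be told apart in the Nlrp3 mutant against control and in the het mutant against control, and the comparisons with the null mutant are given below also among libraries alike in these transcripts.

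Promoter sequences were read for the 6 of 9 genes that the RefSeq table of GRCm38.p6 holds: Scnn1b, Scnn1g, Aqp1, Aqp5, Atp1b1 and Cftr. Of these, 4 are shown, because Scnn1g and Scnn1b lie side by side and moved together, Atp1b1 was among the largest changes, and Aqp1 was the gene that did not pass the test. Each window runs from 250 bases before to 50 bases after the start of the gene in RefSeq, 5′ to 3′ on the gene's own strand, with capitals at each match to a searched motif. Distances of motifs count from that start. For Aqp1 it lies 133 bases before the GENCODE start given with the gene's levels, and for Aqp5 246 bases after it, while the other 4 starts are the same in both.
Scnn1g, chr7:121734229-121734528, plus strand: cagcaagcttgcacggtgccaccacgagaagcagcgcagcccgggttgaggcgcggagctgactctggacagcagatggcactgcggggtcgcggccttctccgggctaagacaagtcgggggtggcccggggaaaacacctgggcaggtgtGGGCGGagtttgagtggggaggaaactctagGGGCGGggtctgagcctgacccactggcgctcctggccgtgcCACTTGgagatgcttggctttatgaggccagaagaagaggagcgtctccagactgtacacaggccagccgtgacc
Scnn1b, chr7:121864788-121865087, plus strand: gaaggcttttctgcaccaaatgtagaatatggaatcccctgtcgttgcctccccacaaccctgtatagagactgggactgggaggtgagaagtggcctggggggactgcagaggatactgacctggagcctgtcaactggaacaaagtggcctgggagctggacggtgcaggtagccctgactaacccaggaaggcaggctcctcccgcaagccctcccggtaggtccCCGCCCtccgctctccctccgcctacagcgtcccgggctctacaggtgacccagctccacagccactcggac
Atp1b1, chr1:164458306-164458605, minus strand: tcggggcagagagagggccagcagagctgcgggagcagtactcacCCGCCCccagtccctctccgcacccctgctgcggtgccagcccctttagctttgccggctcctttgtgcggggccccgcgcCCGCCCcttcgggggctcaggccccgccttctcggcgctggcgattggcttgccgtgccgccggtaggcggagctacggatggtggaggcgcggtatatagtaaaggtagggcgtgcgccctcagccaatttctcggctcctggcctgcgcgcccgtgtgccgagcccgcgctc
Aqp1, chr6:55336049-55336348, plus strand: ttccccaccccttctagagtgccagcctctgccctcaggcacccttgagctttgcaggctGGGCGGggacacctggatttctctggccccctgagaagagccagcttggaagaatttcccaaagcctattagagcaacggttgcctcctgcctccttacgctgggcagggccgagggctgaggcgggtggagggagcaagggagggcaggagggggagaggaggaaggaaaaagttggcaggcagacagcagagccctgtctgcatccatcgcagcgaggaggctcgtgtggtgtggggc
The capitals in Scnn1g mark the SP/KLF motif GGGCGG 98 and 67 bases before the start and the NKX2 motif CAAGTG, on the other strand, 25 bases before it. Scnn1b had GGGCGG on the other strand 22 bases before the start, Atp1b1 had it on the other strand 205 and 124 bases before, and Aqp1 had it 190 bases before. Of 32851 windows of the same length in the table, 35.7% held GGGCGG and 13.6% held CAAGTG on either strand. Of the windows not shown, Aqp5 held 3 matches to GGGCGG. Cftr held 6, of which some overlap, and also the cyclic AMP response motif TGACNTCA 14 bases after the start, found in 8.83% of windows. The glucocorticoid receptor motif AGAACA (19.0% of windows), the AP-1 motif TGANTCA (7.81%), the STAT motif TTCNNNGAA (8.3%), the TEAD motif GGAATG (14.7%) and the NF-kB motif (8.46%) were found in none of the 6 windows, which says only that these letters are not in these bases.

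In the lungs of Nlrp3 mutants, 8 of the 9 genes were higher than in controls at an adjusted p under 0.05, and none was lower. The background in this comparison was broad: 28.0% of the 13549 genes tested were higher by the same test, which was limma on log2(FPKM + 1) with Benjamini-Hochberg adjustment over all tested genes. The libraries of the groups did not overlap for any of the 9 genes, as for 32.2% of all genes in the higher direction. The median log2 fold change of the 9 genes was 0.70, beside 0.002 over all genes tested. Scnn1a, Scnn1b, Scnn1g and Atp1b1 had log2 fold changes of at least 1, as 4.30% of all genes did in that direction. In bulk lung, fewer or more cells of a type and a change of RNA per cell cannot be told apart for any of these differences.

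The channel subunits had the largest rises together with Atp1b1. Scnn1a, the α subunit that the channel cannot do without (chromosome 6, 125320659 to 125344943, GRCm38, as all positions here), had 127.1, 144.6 and 133.5 FPKM in Nlrp3 mutants, against 37.64, 30.51 and 35.76 FPKM in controls. The lowest mutant library stood far above the highest control library. The log2 fold change was 1.94 (SE 0.086, adjusted p = 5.4e-06), a ratio of means of 3.90. Scnn1b, the β subunit (chromosome 7, 121865038 to 121918514), had 43.22, 47.58 and 44.27 FPKM in Nlrp3 mutants, against 18.79, 19.74 and 21.87 FPKM in controls. Mutants were again all higher, with a log2 fold change of 1.12 (SE 0.069, adjusted p = 1.8e-05). Scnn1g, the γ subunit, lies 96562 bases upstream of Scnn1b on the same strand (121734479 to 121768475), with no protein-coding gene in between. It had 94.67, 104.9 and 101.7 FPKM in Nlrp3 mutants, against 45.11, 38.98 and 47.84 FPKM in controls. Its log2 fold change, 1.18 (SE 0.081, adjusted p = 2.5e-05), differed from that of its neighbour by less than either standard error. Scnn1b overlaps Cog7 on the opposite strand, and whether reads were counted by strand is not given in the sources used here. Cog7 averaged 12.1 ± 1.74 FPKM in Nlrp3 mutants and 9.67 ± 0.888 FPKM in controls (SD, n = 3 each), a difference that did not pass the test (adjusted p = 0.0546, limma).

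**Figure D1:**
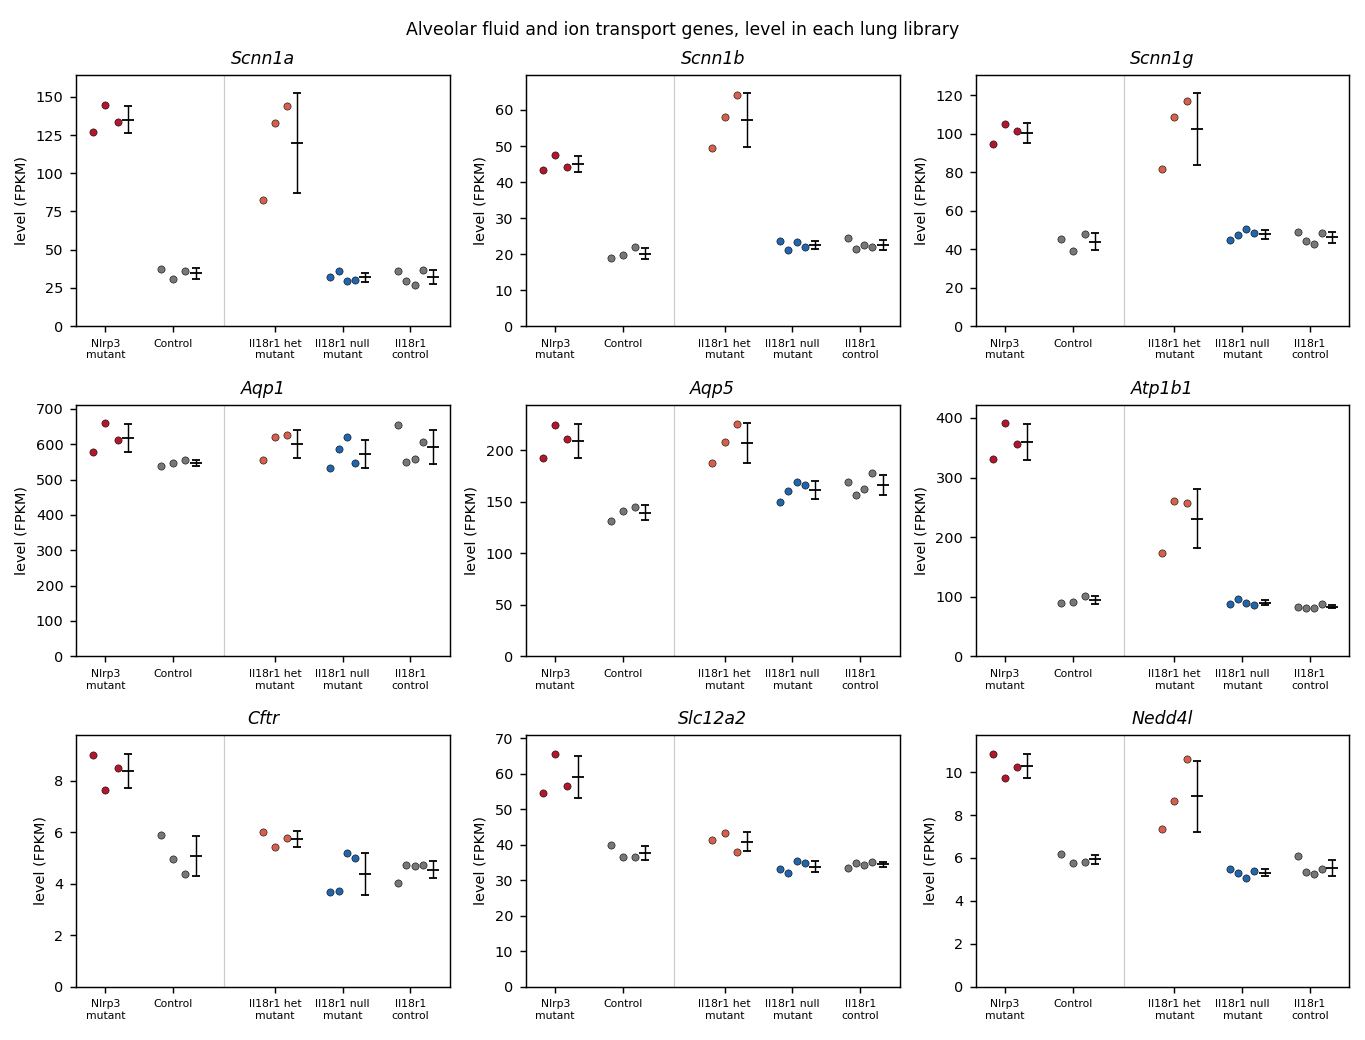
Level of each of the 9 genes in FPKM (vertical axis, linear from 0, a scale of its own per gene) in every library of the 5 groups, with 1 point per library and the group mean ± SD. Het and Nlrp3 mutants lie above their controls for the channel subunits and Atp1b1, null mutants lie at control level, and Aqp1 is nearly flat.

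The subunits did not rise in proportion. The Scnn1a level over the Scnn1g level was 1.34 ± 0.033 in Nlrp3 mutants and 0.788 ± 0.0438 in controls (SD, n = 3 each), so that Scnn1a was above Scnn1g in each mutant library and below it in each control library. The ratio of Scnn1b to Scnn1g was 0.448 ± 0.0115 in Nlrp3 mutants and 0.460 ± 0.045 in controls, with overlapping ranges. Nedd4l encodes a ubiquitin ligase that removes the channel from the cell surface (chromosome 18, 64887705 to 65217828). It had 10.87, 9.743 and 10.25 FPKM in Nlrp3 mutants, against 6.19, 5.785 and 5.819 FPKM in controls. The transcript of this negative regulator was thus higher together with the channel, with a log2 fold change of 0.70 (SE 0.068, adjusted p = 1.1e-04, limma).

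Atp1b1, the β subunit that carries the sodium pump to the membrane (chromosome 1, 164437109 to 164458355), had 330.4, 390.8 and 356.0 FPKM in Nlrp3 mutants, against 88.95, 91.95 and 102.0 FPKM in controls. This was a log2 fold change of 1.92 (SE 0.080, adjusted p = 5.0e-06), the second largest of the 9 after Scnn1a. Atp1b1 overlaps Nme7 on the opposite strand, and Nme7 averaged 5.92 ± 0.436 FPKM in Nlrp3 mutants and 5.93 ± 0.653 FPKM in controls.

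The chloride transporters rose less. Cftr, the chloride channel opened by cyclic AMP signalling (chromosome 6, 18170687 to 18322768), was the least abundant of the 9 by mean, with 8.981, 7.65 and 8.503 FPKM in Nlrp3 mutants and 5.893, 4.953 and 4.377 FPKM in controls. All mutant libraries were higher (log2 fold change 0.63, SE 0.11, adjusted p = 0.00152). Slc12a2, the cotransporter that loads epithelial cells with chloride (chromosome 18, 57878678 to 57946821), had 54.5, 65.62 and 56.62 FPKM in Nlrp3 mutants and 39.81, 36.41 and 36.38 FPKM in controls. Its log2 fold change was 0.63 (SE 0.078, adjusted p = 3.3e-04), and no mutant library fell within the control range. Cftr overlaps the annotated antisense RNA Gm15592, and Nedd4l overlaps 2 antisense RNAs, whose reads could not be separated without strand.

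The water channels behaved differently from each other. Aqp5, the water channel of alveolar type 1 cells and glands (chromosome 15, 99590782 to 99594829), had 192.2, 224.3 and 210.9 FPKM in Nlrp3 mutants and 131.5, 141.6 and 145.3 FPKM in controls. Each mutant library was above each control library (log2 fold change 0.58, SE 0.072, adjusted p = 3.4e-04). Aqp1, the water channel of lung capillary endothelium (chromosome 6, 55336432 to 55348555), had 579.6, 659.2 and 612.9 FPKM in Nlrp3 mutants and 537.4, 547.9 and 556.6 FPKM in controls. It was the most abundant of the 9 in every library, and the groups did not overlap, but its log2 fold change of 0.17 (SE 0.070, 95% interval 0.01 to 0.33) did not pass the test (adjusted p = 0.0684). Without Nlrp3 mutant library 1 it passed, at an adjusted p of 0.0431. The Aqp5 level over the Aqp1 level was 0.339 ± 0.00637 in Nlrp3 mutants and 0.255 ± 0.00878 in controls.

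By mean FPKM, the order in Nlrp3 mutants was Aqp1, Atp1b1, Aqp5, Scnn1a, Scnn1g, Slc12a2, Scnn1b, Nedd4l and Cftr. In controls it was Aqp1, Aqp5, Atp1b1, Scnn1g, Slc12a2, Scnn1a, Scnn1b, Nedd4l and Cftr, so Atp1b1 and Scnn1a stood higher in the mutants' order. In controls, neighbours in this order whose libraries overlapped in level were Scnn1g and Slc12a2, Slc12a2 and Scnn1a, and Nedd4l and Cftr, and in Nlrp3 mutants no neighbours overlapped. In het mutants the order was that of Nlrp3 mutants except that Scnn1b stood above Slc12a2. In null mutants and in Il18r1 controls it was the order of the controls of the first experiment.

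The second experiment gave a further set of mutants with the same Nlrp3 allele and at least 1 lost copy of Il18r1. In the het mutant, 8 of the 9 genes were higher than in the Il18r1 control and none was lower. The test called 27.3% of 13724 genes higher in this comparison, and the 8 genes did not overlap between groups, as was so for 27.4% of all genes in that direction. The median log2 fold change of the 9 was 0.59, beside -0.02 over all genes, and 4 of the 9 had a log2 fold change of 1 or more, as 5.40% of all genes did. The 4 were again the channel subunits and Atp1b1.

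Scnn1a had 82.3, 132.8 and 143.7 FPKM in het mutants, against 36.07, 29.26, 27.05 and 36.53 FPKM in controls. Het library 1 was the lowest of the 3, yet still above all controls, and the log2 fold change was 1.83 (SE 0.17, adjusted p = 3.3e-06). Scnn1b had 49.4, 58.19 and 64.15 FPKM in het mutants, against 24.36, 21.32, 22.4 and 21.88 FPKM in controls. All het libraries were above all controls (log2 fold change 1.30, SE 0.080, adjusted p = 1.6e-07). Scnn1g had 81.49, 108.9 and 117.1 FPKM in het mutants, against 49.17, 44.07, 42.94 and 48.2 FPKM in controls. Het library 1 was again the lowest (log2 fold change 1.12, SE 0.10, adjusted p = 3.2e-06). Atp1b1 had 173.5, 260.5 and 258.0 FPKM in het mutants, against 82.73, 81.85, 81.85 and 87.56 FPKM in controls, with the same library lowest. Its log2 fold change was 1.43 (SE 0.11, adjusted p = 1.0e-06). Cog7, the partner of Scnn1b on the other strand, was also higher, at 11.9 ± 0.915 FPKM in het mutants and 7.89 ± 0.469 FPKM in controls (adjusted p = 2.68e-05, limma).

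The other genes moved by less than 1 on the log2 scale in the het mutant. Nedd4l had 7.358, 8.649 and 10.64 FPKM in het mutants and 6.087, 5.346, 5.237 and 5.469 FPKM in controls. The groups did not overlap, and the log2 fold change was 0.59 (SE 0.095, adjusted p = 2.5e-04). Aqp5 had 187.3, 208.6 and 225.5 FPKM in het mutants and 168.9, 156.4, 162.2 and 178.3 FPKM in controls, a log2 fold change of 0.31 (SE 0.070, adjusted p = 0.00255). Slc12a2 had 41.28, 43.14 and 37.81 FPKM in het mutants and 33.52, 34.81, 34.12 and 35.08 FPKM in controls (log2 fold change 0.24, SE 0.053, adjusted p = 0.00253). These 2 genes were above all controls in each het library, by a narrow gap. Cftr had 6.019, 5.412 and 5.775 FPKM in het mutants and 4.038, 4.726, 4.672 and 4.738 FPKM in controls. Its call was the least secure, with a log2 fold change of 0.28 (SE 0.11) and an adjusted p of 0.0381 that rose to between 0.0505 and 0.102 when any 1 of the 7 libraries was left out. Aqp1 had 556.4, 622.0 and 626.0 FPKM in het mutants and 654.2, 549.9, 558.9 and 605.3 FPKM in controls. The groups overlapped, and the log2 fold change was 0.02 (95% interval -0.15 to 0.19, adjusted p = 0.814, limma). When all libraries were set to equal total FPKM, the median of all genes moved by -0.15 in log2, and Aqp5, Cftr and Slc12a2 no longer passed.

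**Figure D2:**
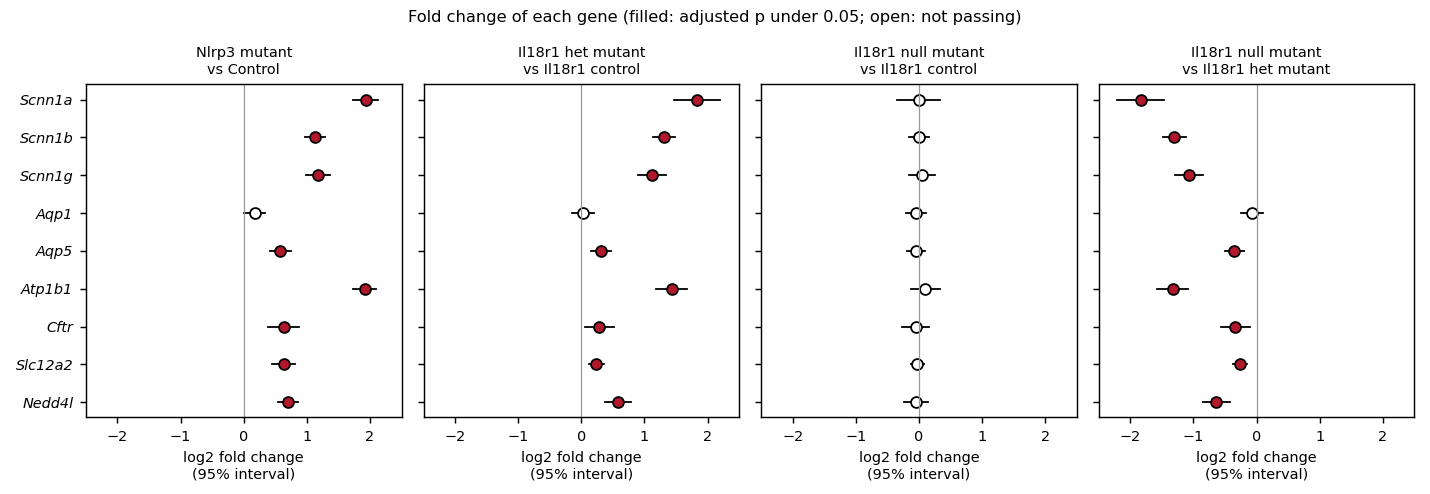
Log2 fold change with its 95% interval (horizontal axis) of each of the 9 genes in the 4 comparisons, with filled points for an adjusted p under 0.05. Points of the null mutant against control lie between -0.05 and 0.10, with every interval across 0.

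In the null mutant, which carries the Nlrp3 allele without an intact copy of Il18r1, none of the 9 genes differed from the Il18r1 control at an adjusted p under 0.05 by limma. None of the 9 did so at an unadjusted p under 0.05 either, nor in the authors' deposited table of this comparison. Few genes did so at all: 1.97% of the genes tested passed in either direction by limma, and 3.74% in the authors' deposited table. The median log2 fold change was -0.03, beside -0.01 over all genes.

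Scnn1a had 31.88, 36.19, 29.45 and 30.17 FPKM in null mutants, against the 27.05 to 36.53 FPKM of controls given above. The libraries were intermixed (log2 fold change -0.01, 95% interval -0.35 to 0.34). Scnn1b had 23.7, 21.13, 23.34 and 22.0 FPKM in null mutants, and its interval of -0.16 to 0.17 was narrower. Scnn1g had 44.54, 47.39, 50.52 and 48.32 FPKM in null mutants, with an interval of -0.16 to 0.26. A log2 difference as large as the 1.12 to 1.83 of the channel subunits in het mutants lay outside each of these intervals. Atp1b1 had 87.31, 95.4, 90.11 and 86.22 FPKM in null mutants, which overlapped the 81.85 to 87.56 FPKM of controls and reached above them. Its log2 fold change was 0.10 (95% interval -0.13 to 0.33, adjusted p = 0.835), and it was the gene with the smallest adjusted p of the 9 in the authors' deposited table, 0.274.

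Nedd4l had 5.478, 5.288, 5.084 and 5.383 FPKM in null mutants, of which 3 lay within the range of the controls and 1 just below it. Cftr had 3.657, 3.705, 5.185 and 4.983 FPKM in null mutants, a spread of 0.814 FPKM (SD) around a mean of 4.38. Null libraries 1 and 2 were low and 3 and 4 were high, which is not the split of the sex-linked transcripts. Slc12a2 had 33.09, 31.94, 35.29 and 34.9 FPKM, Aqp5 had 149.6, 160.6, 169.8 and 166.6 FPKM, and Aqp1 had 533.2, 587.9, 621.8 and 546.4 FPKM in null mutants. All 3 overlapped their controls. The 95% intervals of the log2 fold changes of these 5 genes lay between -0.27 and 0.16, and each held 0. Small changes within each gene's own interval are therefore not excluded.

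Set against the het mutant, the null mutant had 8 of the 9 genes lower and none higher, where 26.5% of all genes tested were lower. The 8 did not overlap between groups, as for 26.0% of all genes in that direction, and 3.78% of all genes passed with a log2 fold change of -1 or less, as did 4 of the 9. This comparison shares the het libraries with the one of het against control and the null libraries with the one of null against control, so its values are not independent of theirs. Scnn1a was lower by a log2 fold change of -1.84 (SE 0.17, adjusted p = 4.8e-06), Scnn1b by -1.30 (SE 0.080, adjusted p = 3.1e-07), Scnn1g by -1.07 (SE 0.10, adjusted p = 6.5e-06) and Atp1b1 by -1.33 (SE 0.11, adjusted p = 3.0e-06), all by limma. Nedd4l (-0.64), Aqp5 (-0.35), Cftr (-0.34, adjusted p = 0.0182) and Slc12a2 (-0.26) were lower by smaller amounts. Aqp1 did not pass (log2 fold change -0.07, 95% interval -0.24 to 0.10, adjusted p = 0.459). With equal total FPKM, 5 of the 9 passed, without Aqp5, Cftr and Slc12a2.

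Among libraries alike in sex-linked transcripts, null libraries 2 and 4 set against the 3 het mutants gave 7 lower genes, with Scnn1a at -1.78. The background was broad here too: 4826 of all genes passed in either direction in this fit, beside 7311 in the main fit. Cftr, with a log2 fold change of -0.34, did not pass (adjusted p = 0.0684, limma), and Aqp1 did not pass here either. Null libraries 1 and 3 set against the 4 controls gave no passing gene among the 9. Few genes passed in this comparison at all, with 177 to 649 of all genes over its alternatives, of which this fit is 1. In FPKM, null libraries 2 and 4 had 36.19 and 30.17 of Scnn1a, and null libraries 1 and 3 had 31.88 and 29.45, so libraries with Xist and with Y-linked transcripts were alike in the null group.

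The ratios between the genes followed the same grouping. Scnn1a over Scnn1g was 1.15 ± 0.124 in het mutants (SD, n = 3), 0.672 ± 0.0827 in null mutants and 0.696 ± 0.0595 in controls (SD, n = 4 each). Every het library was above every null and control library in this ratio. Scnn1a over Aqp5 was 0.571 ± 0.114 in het mutants, 0.198 ± 0.0249 in null mutants and 0.193 ± 0.0208 in controls, again without overlap of het mutants with the others. In the first experiment this ratio was 0.646 ± 0.0143 in Nlrp3 mutants and 0.249 ± 0.0356 in controls. Aqp5 over Aqp1 was 0.344 ± 0.014 in het mutants, 0.283 ± 0.0151 in null mutants and 0.282 ± 0.0163 in controls. Scnn1b over Scnn1g, which overlapped in the first experiment, was 0.563 ± 0.0382 in het mutants, 0.474 ± 0.0394 in null mutants and 0.489 ± 0.028 in controls, and het mutants lay just above both.

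**Figure D3:**
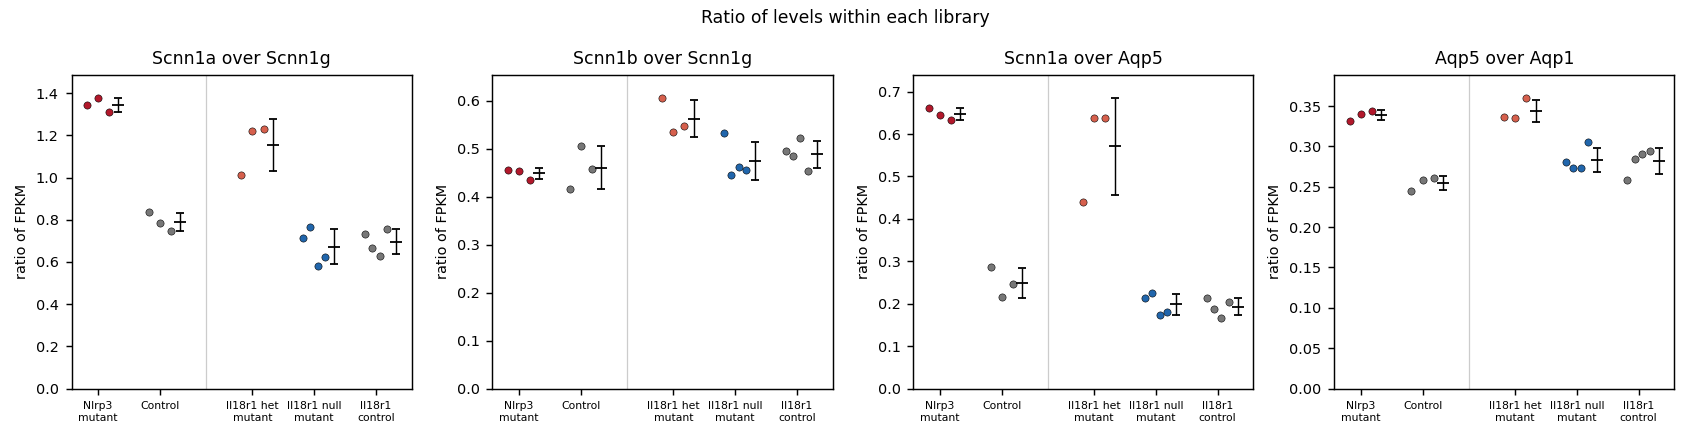
Ratios of levels in FPKM within each library (vertical axis, linear), with 1 point per library and the group mean ± SD. Scnn1a over Scnn1g is above 1 in all Nlrp3 and het mutant libraries and below 1 in all null mutant and control libraries.

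The cell type markers of the lung were also different between groups. Among markers of alveolar type 1 cells, the flat gas exchange cells, 9 of 12 were higher and 1 lower in the Nlrp3 mutant, with summed levels of 3562 to 3712 FPKM in mutants and 2479 to 2619 FPKM in controls. In the het mutant 10 of 12 were higher and 1 lower, with sums of 3409 to 4027 FPKM in het mutants, 2436 to 2627 FPKM in null mutants and 2589 to 2864 FPKM in controls. Hopx and Ager, of this list, averaged 784.4 and 859.8 FPKM in Nlrp3 mutants and 376.4 and 659.8 FPKM in controls. Igfbp2, the 1 lower marker in both mutants, had the largest log2 fold change of the 12 in each. It averaged 44.1 FPKM in Nlrp3 mutants and 168.7 FPKM in controls (log2 fold change -1.93). In the second experiment it averaged 76.8 FPKM in het mutants and 246.1 FPKM in controls (-1.67). Of 12 markers of the surfactant-producing type 2 cells, 11 were higher in the Nlrp3 mutant (sums of 29850 to 37390 FPKM in mutants and 20980 to 22960 FPKM in controls). The same number were higher in the het mutant, with 25900 to 26760 FPKM in het mutants, 15860 to 20030 FPKM in null mutants and 17060 to 18080 FPKM in controls. No epithelial, endothelial or neutrophil marker was at 0 in any library.

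Airway epithelium also expresses the channel subunits and Cftr, and its markers were higher in both mutants too. All 7 markers of airway secretory cells were higher in the Nlrp3 mutant, with a median log2 fold change of 1.10 and sums of 25320 to 26690 FPKM in Nlrp3 mutants and 10670 to 16100 FPKM in controls. In the het mutant 6 of 7 were higher, with sums of 26260 to 27230 FPKM in het mutants, 11290 to 13890 FPKM in null mutants and 13330 to 15870 FPKM in controls. Of 8 markers of ciliated cells, 7 were higher in the Nlrp3 mutant, and 6 were higher and 1 lower in the het mutant. All 4 markers of mesothelium, the outer lining of the lung, were higher in both mutants. None of these 19 markers passed between null mutants and controls. The part that cell numbers had in the levels of the 9 genes was not tested.

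Relative to the geometric mean of the type 1 markers, taken on FPKM + 1, all 8 genes other than Aqp1 were higher in Nlrp3 mutants than in controls without overlap. The share of all genes without overlap after such a division is not given, for these or the marker lists below. Division by a marker level that differs between groups moves every gene of a library by the same factor. Counts of genes without overlap on these scales therefore have no background beside them. Scnn1a stood at 0.703 ± 0.0499 of the marker level in Nlrp3 mutants and 0.233 ± 0.0216 in controls, and Atp1b1 at 1.87 ± 0.169 in Nlrp3 mutants and 0.636 ± 0.0413 in controls. Aqp5 was at 1.09 ± 0.0916 in Nlrp3 mutants and 0.941 ± 0.0513 in controls (SD, n = 3 each), a much smaller difference. In het mutants 5 of the 8 were higher than in controls without overlap (the channel subunits, Atp1b1 and Nedd4l), and Aqp5 was lower, at 1.04 ± 0.00954 in het mutants (SD, n = 3) and 1.10 ± 0.0274 in controls (SD, n = 4). Cftr and Slc12a2 overlapped. In null mutants 7 of the 8 overlapped their controls, and Scnn1g was higher, at 0.326 ± 0.0145 in null mutants and 0.304 ± 0.00589 in controls (SD, n = 4 each).

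Relative to the type 2 markers, Scnn1a, Scnn1b, Scnn1g and Atp1b1 were higher in Nlrp3 mutants than in controls without overlap, Nedd4l was lower, and Aqp5, Cftr and Slc12a2 overlapped. Scnn1a stood at 0.178 ± 0.0186 of the type 2 marker level in Nlrp3 mutants and 0.0841 ± 0.00402 in controls. Nedd4l stood at 0.0135 ± 0.000217 in Nlrp3 mutants and 0.0144 ± 0.000587 in controls. In het mutants Scnn1a, Scnn1b and Atp1b1 were higher than in controls by this measure, Aqp5, Cftr and Slc12a2 were lower, and Scnn1g and Nedd4l overlapped. Scnn1a was at 0.182 ± 0.0512 in het mutants and 0.0879 ± 0.0114 in controls. All 8 overlapped between null mutants and controls. Scnn1a, Scnn1b and Atp1b1 were thus higher in both mutants, relative to either alveolar marker list, as they were in FPKM.

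Relative to the geometric mean of the 7 airway secretory markers, a measure added after the other values were seen, the order differed. Of the 8 genes, 2 were higher in Nlrp3 mutants than in controls without overlap, and 6 were lower. Scnn1a stood at 0.546 ± 0.0149 of the airway marker level in Nlrp3 mutants and 0.394 ± 0.0889 in controls, and Atp1b1 at 1.45 ± 0.0664 in Nlrp3 mutants and 1.06 ± 0.0960 in controls. Scnn1b was lower, at 0.182 ± 0.00290 in Nlrp3 mutants and 0.226 ± 0.0184 in controls, and so were Scnn1g, Aqp5, Cftr, Slc12a2 and Nedd4l. In het mutants none of the 8 was higher than in controls without overlap by this measure. The airway marker mean was itself uneven among these controls, at 55.34, 101.8, 110.8 and 48.58 in libraries 1 to 4, so their ratios spread widely. In het mutants it was 216.0 to 225.1. Aqp5, Cftr, Slc12a2 and Nedd4l were lower, and the channel subunits and Atp1b1 overlapped, with Scnn1a at 0.541 ± 0.139 in het mutants (SD, n = 3) and 0.484 ± 0.256 in controls (SD, n = 4). All 8 overlapped between null mutants and controls.

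**Figure D4:**
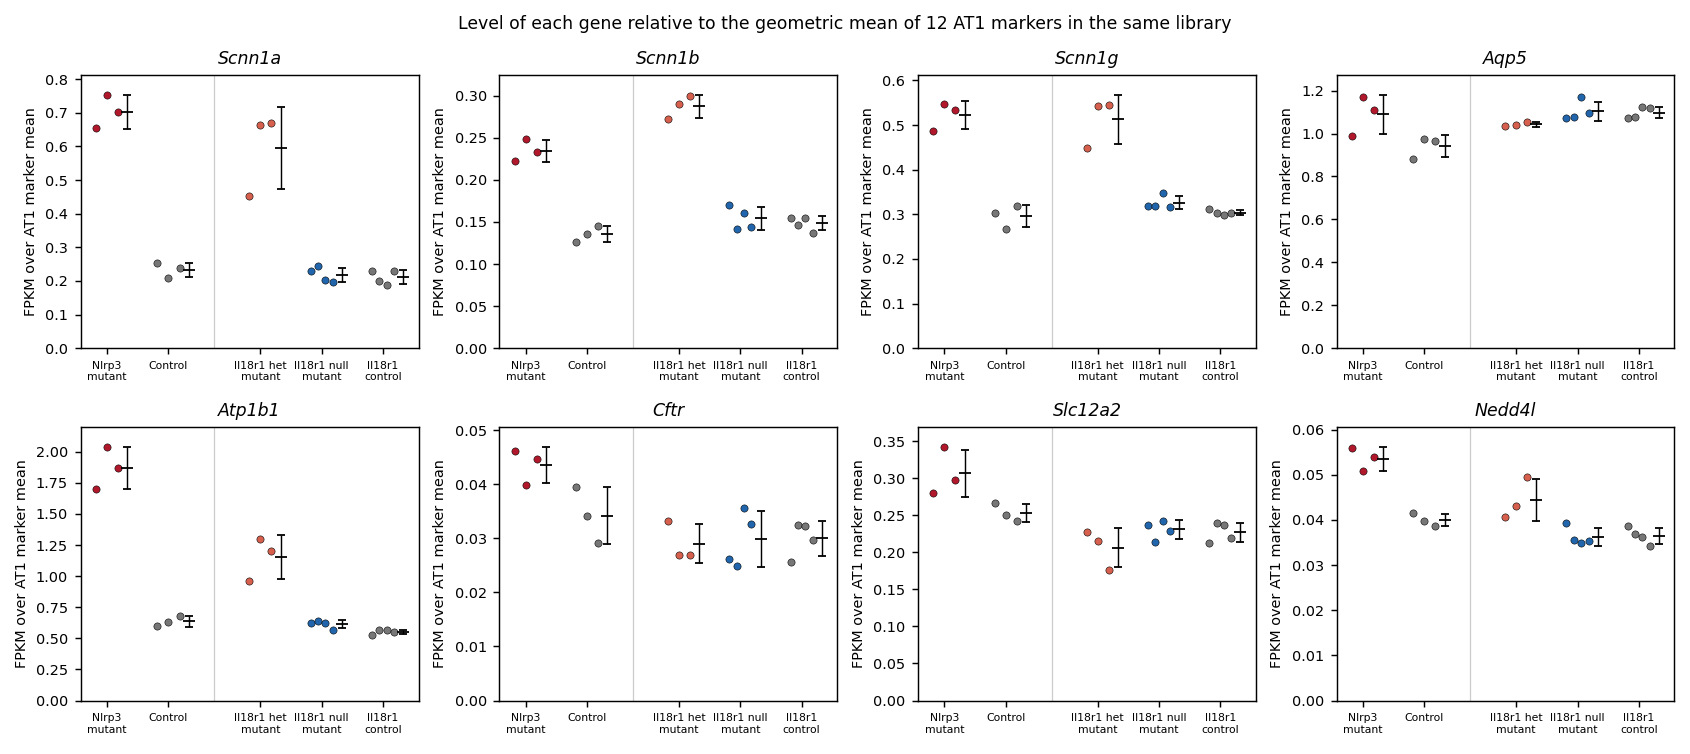
Level of the 8 genes other than Aqp1 in every library relative to the geometric mean of the 12 type 1 cell (AT1) markers (vertical axis, linear, a ratio without unit), with 1 point per library and the group mean ± SD. Scnn1a and Atp1b1 stand apart in Nlrp3 and het mutants, while Aqp5 lies near 1 of the type 1 marker level in all 5 groups.

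Aqp1 was set against endothelial markers, of which 6 of 14 were lower and 3 higher in the Nlrp3 mutant, with sums of 1714 to 1781 FPKM in mutants and 1957 to 2007 FPKM in controls. In the het mutant 7 were lower and 3 higher, with sums of 1961 to 2007 FPKM in het mutants, 1964 to 2293 FPKM in null mutants and 2128 to 2564 FPKM in controls. Aqp1 over the geometric mean of these markers was 7.20 ± 0.476 in Nlrp3 mutants and 5.81 ± 0.234 in controls (SD, n = 3 each), without overlap. It was 6.81 ± 0.413 in het mutants, 6.04 ± 0.412 in null mutants and 5.81 ± 0.25 in controls, where het mutants overlapped null mutants but not controls. Neutrophil markers were higher in every mutant group, 8 of 8 in each comparison with a control. Their sums were 9278 to 14920 FPKM in Nlrp3 mutants and 357.6 to 1278 FPKM in controls, and 9954 to 19180 FPKM in het mutants, 2112 to 2901 FPKM in null mutants and 204.1 to 305.5 FPKM in Il18r1 controls. Null mutants had neutrophil marker sums above their controls and below het mutants, and none of the 9 transport genes differed between null mutants and controls by the test. Whether neutrophil markers and transport genes are related was not tested.

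Beyond the 9 genes, 55 further genes of fluid and ion transport were read in 5 lists. Of the 49 tested in the Nlrp3 mutant, 23 were higher, 7 lower and 19 did not pass, with a median log2 fold change of 0.15. Over all genes tested there, 28.0% were higher (median 0.002). Of the 52 tested in the het mutant, 23 were higher, 7 lower and 22 did not pass (median 0.16). Over all genes, 27.3% were higher (median -0.017). In the null mutant against its control 2 were higher and 50 did not pass (median -0.02), and 1.97% of all genes passed. Against the het mutant, 22 were lower, 6 higher and 24 did not pass in the null mutant (median -0.09). Over all genes, 26.5% were lower (median 0.007).

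The sodium pump list of 8 further subunits and regulators had 3 higher and 1 lower in the Nlrp3 mutant, and the same counts in the het mutant. Fxyd5, a pump regulator, averaged 57.5 FPKM in Nlrp3 mutants and 29.0 FPKM in controls, and 73.4 FPKM in het mutants, 40.3 FPKM in null mutants and 27.4 FPKM in Il18r1 controls. It was also higher in the null mutant than in its control (log2 fold change 0.54, adjusted p = 0.00273, limma). Atp1b2, the alternative β subunit, was lower, with 5.90 FPKM in Nlrp3 mutants and 11.5 FPKM in controls, and 5.29 FPKM in het mutants, 10.4 FPKM in null mutants and 12.8 FPKM in Il18r1 controls. Atp1b3, a further β subunit, averaged 146 FPKM in Nlrp3 mutants and 126 FPKM in controls, and passed as higher (log2 fold change 0.21, adjusted p = 0.0184, limma). It averaged 135 FPKM in het mutants and 127 FPKM in Il18r1 controls, and did not pass (log2 fold change 0.09, adjusted p = 0.189). Atp1b1 was thus higher and Atp1b2 lower in both mutants.

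Of the regulators of the sodium channel, 9 of 18 tested were higher and 3 lower in the Nlrp3 mutant, and 8 of 19 were higher and 4 lower in the het mutant. None of 19 passed in the null mutant against control. Adrb1, a receptor for noradrenaline and adrenaline, was lower, with 14.3 FPKM in het mutants and 24.4 FPKM in controls (log2 fold change -0.72). Hsd11b2, which inactivates glucocorticoids, averaged 0.709 FPKM in Nlrp3 mutants and 4.72 FPKM in controls, and 1.74 FPKM in het mutants, 6.28 FPKM in null mutants and 8.49 FPKM in Il18r1 controls. Spint1, an inhibitor of membrane serine proteases, averaged 31.3 FPKM in Nlrp3 mutants and 16.0 FPKM in controls, and Prss8, a protease that can activate the channel, averaged 76.9 FPKM in Nlrp3 mutants and 52.4 FPKM in controls. A protease and an inhibitor of such proteases were thus both higher. Tsc22d3, a target of the glucocorticoid receptor named here after its values were seen, averaged 282.5 ± 84.4 FPKM in Nlrp3 mutants and 77.7 ± 5.19 FPKM in controls (SD, n = 3 each). It averaged 257.1 ± 91.1 FPKM in het mutants, 104.0 ± 30.2 FPKM in null mutants and 97.5 ± 12.9 FPKM in Il18r1 controls. Nr3c1, the gene of that receptor, was lower in Nlrp3 mutants (log2 fold change -0.14, adjusted p = 0.0371, limma) and in het mutants (-0.27, adjusted p = 0.00188). Sgk1, of the same list, was higher in Nlrp3 mutants (0.49, adjusted p = 0.0121, limma) but did not pass in het mutants (0.17, adjusted p = 0.487). A part of glucocorticoids in these differences was not tested.

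**Figure D5:**
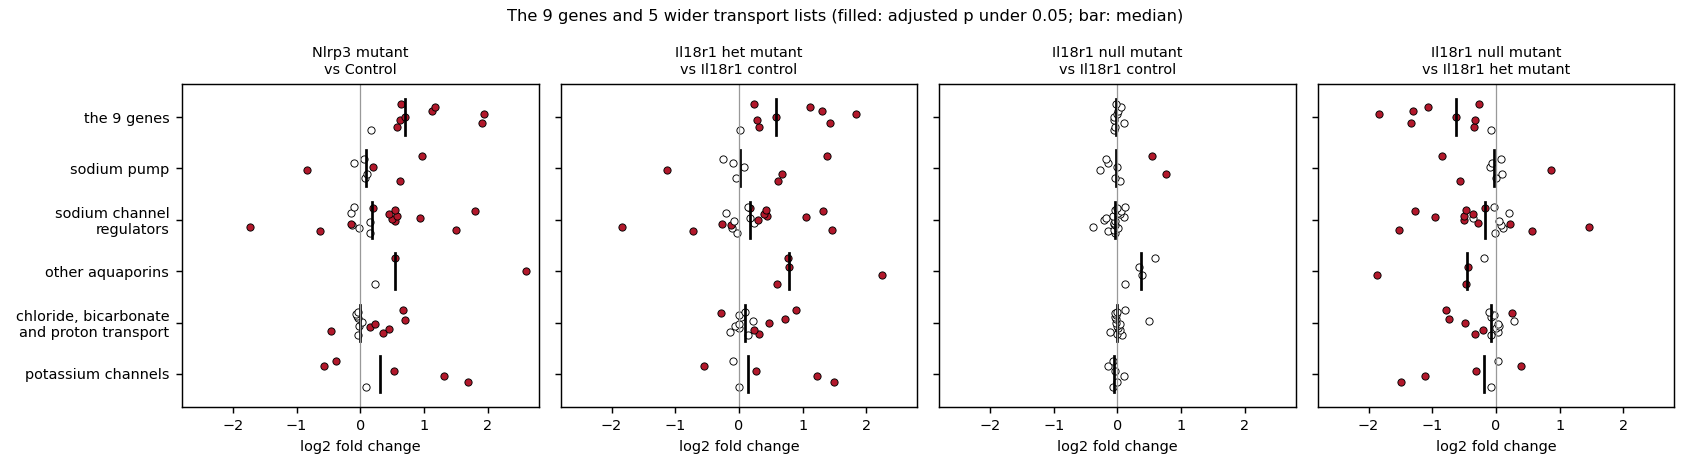
Log2 fold change (horizontal axis) of the 9 genes (top row) and of each tested gene of the 5 further transport lists in the 4 comparisons, with 1 point per gene, filled for an adjusted p under 0.05, and a bar at the list's median. Of the genes tested in the 5 lists, 23 were higher in the Nlrp3 mutant and 23 in the het mutant, and 2 passed in the null mutant against control. Over all genes tested, 28.0% and 27.3% were higher in these 2 mutants, and 1.97% passed in the null mutant against control.

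Among other aquaporins, Aqp3, which also carries glycerol, averaged 11.6 FPKM in Nlrp3 mutants and 1.07 FPKM in controls (log2 fold change 2.59), and 7.50 FPKM in het mutants, 1.36 FPKM in null mutants and 0.795 FPKM in Il18r1 controls. It had a larger log2 fold change than any of the 9 genes, from a lower level. Of the chloride, bicarbonate and proton list, 6 of 14 were higher and 1 lower in the Nlrp3 mutant, and 5 of 15 were higher and 1 lower in the het mutant. The list's median log2 fold change was -0.004 in the Nlrp3 mutant (0.002 over all genes) and 0.096 in the het mutant (-0.017 over all genes). Slc26a9, a chloride transporter of airway and alveolar epithelium, averaged 15.1 FPKM in Nlrp3 mutants and 8.83 FPKM in controls. Slc9a3r1, a scaffold that binds CFTR at the cell surface, averaged 52.3 FPKM in Nlrp3 mutants and 32.5 FPKM in controls. Of 6 potassium channels, 3 were higher and 2 lower in the Nlrp3 mutant. Kcnj15 averaged 33.7 FPKM in Nlrp3 mutants and 9.83 FPKM in controls, and 28.5 FPKM in het mutants, 9.15 FPKM in null mutants and 9.38 FPKM in Il18r1 controls.

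For each of the 9 genes, the genes most alike in pattern were those with the smallest root mean square difference over the 17 libraries, among 13443 genes tested in both tables. The values compared were log2(FPKM + 1) centred on the mean of their table. For Scnn1g these were Nceh1 (0.0689), Serinc3 (0.0804) and Tspan11 (0.0918), and for Scnn1b they were Abcc3 (0.0879), Pcx (0.0976) and Reln (0.103). Cd163 (0.117) and Cyp2b10 (0.128) were near Atp1b1. Scnn1a was less closely matched, by Sult1a1 (0.171), Atp6v0a4 (0.177) and Adamtsl2 (0.178). None of the 9 genes was among the 3 nearest of another. For the genes with smaller differences the nearest were Lrp4 for Nedd4l (0.067), Arhgef12 for Aqp5 (0.0566), Tmem106b for Slc12a2 (0.0578), Slc2a13 for Cftr (0.0976) and Cpsf1 for Aqp1 (0.053). Genes that vary little lie near many others by this measure.

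The authors' deposited tables of the second experiment gave the same calls for all 9 genes in the 3 comparisons. Over all genes, 46.2% passed for het against control and 44.1% for null against het in the authors' deposited tables. In the authors' deposited table, the mean normalized count over het mutants and controls ran from 1028 for Cftr to 41691 for Aqp1, so that Cftr had the fewest reads behind its value. The log2 fold changes of het against control in the authors' deposited table were 1.92 for Scnn1a (SE 0.24), 1.39 for Scnn1b (SE 0.10), 1.20 for Scnn1g (SE 0.12), 1.49 for Atp1b1 (SE 0.13) and 0.34 for Cftr (SE 0.094).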

How the data were processed

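Lung RNA of 17 libraries was sequenced as stranded paired-end mRNA libraries, per the labels' protocols. STAR and the build GRCm38 (mm10) are named in the submitters' processing notes; the counting tool, its use of strand and the gene annotation are not given in the sources used here. Each experiment has 1 table of FPKM deposited by the authors; the unit was inferred from values that are not whole, have no fixed sum and scale with gene length. The authors also deposited 3 result tables for the second experiment. Per the file headers their columns are the mean normalized count (a signal averaged over libraries), the log2 fold change and its error, a test score, and the p-value before and after adjustment. The direction of the deposited log2 fold changes was checked on the FPKM. In 2 of these tables, summary lines that name no gene held 18.5% and 19.1% of the mean count and were left out, as were 27 date-like gene names per FPKM table.

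The test was limma 3.58.1 in R 4.3.3, with its trend option, on log2(FPKM + 1), a scale that makes changes of low genes look smaller. A gene was tested where 3 or more libraries of its table reached 1 FPKM, and the Benjamini-Hochberg threshold was 0.05. Separate fits used the 6 libraries of the first experiment and the 11 of the second. The test was tried on simulated data. Read totals per library are unknown, so no counting interval was made; relative depth was the commonest ratio of values under 0.3 FPKM. Total FPKM per library was 462421 to 559152. Libraries of a group correlated across genes with r of 0.994 to 0.997, and 0 pairs were identical. Same-numbered libraries deviated together with correlations of -0.077 to 0.113 in the first experiment and -0.101 to 0.269 in the second, so replicate numbers were not taken as pairs.

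The 9 genes, the gene lists and the alternatives were chosen with earlier results of these data known. All 9 genes are named, with up to 4 genes of smallest p per further list and comparison, not all of which are reported here. Tsc22d3, Nr3c1 and Sgk1 were named after their values were seen. Positions are from GENCODE on GRCm38, promoters from RefSeq. Alternatives were other scalings, a pseudocount of 0.1, other filters, replicate blocks, fits of 2 groups, libraries alike in sex-linked transcripts, the authors' deposited tables, and each library left out. Tables and figures were made in Python 3.11.15 (pandas 2.3.3, numpy 2.4.6, matplotlib 3.10.9).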

Additional observations from a re-analysis of the deposited data

Results flagged for a closer look

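Within the 28 sets of values examined, each 1 gene in 1 group of 4 libraries or 1 ratio, 2 had a library that stood apart, and chance gives about 1 in 20. Atp1b1 was 87.56 FPKM in Il18r1 control library 4, where the nearest other control was 82.73, a gap of 0.846 of the group's range. Cftr was 4.038 FPKM in Il18r1 control library 1, where the nearest other control was 4.672, a gap of 0.906 of the range.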

How the results depend on the processing

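For single genes among the 9, 537 values were recomputed under alternatives. Of these, 519 kept their side of the threshold, 17 no longer passed and 1 newly passed. Among values that passed in the main fit or the alternative, 0 turned round. Values that passed in neither are within the 519 whatever their sign, and some changed sign. Aqp1 in null against het, at -0.072 in the main fit, reached 0.135 under the alternatives. With equal total FPKM, 5 of the 9 genes passed in het against control and 5 in null against het, without Aqp5, Cftr and Slc12a2; that scaling moved the median of all genes by -0.15 in the Nlrp3 mutant against control, -0.15 in het against control and 0.185 in null against het. Relative to that median, the median of the 9 genes was 0.70, 0.60 and -0.64 in these 3 comparisons, with and without the scaling. The scaling moves every gene of a library by nearly the same amount, so this equality was fixed in advance. In het against control Cftr also missed the threshold without the expression filter (adjusted p = 0.0619). Cftr was below the filter of a mean of 5 FPKM in the second experiment and has no value there. Null against het, Cftr missed the threshold without het library 1 (adjusted p = 0.0559) and without null library 2 (0.0514). Over all genes, null against control had 177 passing genes at a mean of 5 FPKM or more and 649 in the authors' deposited table, and null against het had 4826 among libraries alike in sex-linked transcripts.

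Leaving out each library in turn, 8 to 9 of the 9 genes passed in the Nlrp3 mutant against control, 7 to 7 in het against control, 0 to 0 in null against control and 7 to 8 in null against het. Over all genes these ranges were 5930 to 6940, 6815 to 7640, 206 to 270 and 6398 to 7203. With the replicate block, 8, 8, 0 and 8 of the 9 passed and 7009, 7278, 225 and 6807 of all genes; the numbers do not pair the libraries. With 3 or 4 libraries a group and unknown read totals, small changes of low genes such as Cftr were hard to detect.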
